A study of Mus musculus with 17 samples.

Results

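The chromatin contacts of 7 genes for regional transcription factors were examined: the COUP-TF genes Nr2f1, Nr2f2 and Nr2f6 and the ZIC genes Zic1, Zic2, Zic4 and Zic5. A loop was taken as one of theirs when an anchor lay within 5 kb of a transcription start site (TSS) of the gene in mm9. This gave 366 of the 1211657 loops seen in 17 H3K27ac HiChIP libraries, holding 672 read pairs in bulk cells and 83 in sorted cells. H3K27ac HiChIP counts read pairs that join 2 chromatin regions (anchors) pulled down with an antibody to H3K27ac, the histone acetylation that marks promoters and enhancers in use. All libraries came from mouse embryonic stem cells that were formed into embryoid bodies by the hanging drop method and kept in 0.5 µM retinoic acid (RA) for 4 days. The 12 bulk libraries hold the whole, unsorted bodies. The 5 libraries labelled cluster2 hold cells sorted as positive for both EpCAM and CD38, called double positive here, which the study sorted to obtain 1 subpopulation of the same mixture. The bulk thus contains such cells too, and there is no library without RA.

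COUP-TFs are orphan nuclear receptors that bind direct repeats of an AGGTCA-like half-site and act mostly as repressors. Nr2f1 (COUP-TFI) and Nr2f2 (COUP-TFII) pattern the forebrain, hindbrain, heart and vessels and are known to be induced by RA in cultured stem cells, whereas Nr2f6 (EAR2) is the most divergent and broadly used of the 3. ZIC proteins are zinc finger factors related to the GLI family, active in the dorsal neural tube and the neural plate border. Their genes lie in head-to-head pairs, Zic1 with Zic4 and Zic2 with Zic5.

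Loop read pairs per library ranged from 65178 to 241202 in bulk (median 135124.5) and from 50508 to 118179 in double positive cells (median 85966). The labels do not say whether libraries came from separate cultures, so p-values measure the spread between these libraries, which may be technical. Double positive loops used 15082 of the 216081 anchors, 71.3% of them at the promoter of a protein-coding gene, and bulk loops used 216073, of which 14.6% were at promoters. A listed loop has at least 1 read pair, and intervals for counts cover counting error only. After TMM normalization the median log2 fold change of all 13712 genes tested was -0.43, and scaling by library size alone moved it by 1.82 to 1.38. Fold changes below are from the TMM fit (double positive minus bulk), and those of named members are also set against that median. In these mixed populations fewer cells of a type and less contact per cell cannot be told apart.

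The sorted cells were checked against markers. Epcam had 13 read pairs in bulk and 25 in double positive libraries and Cd38 36 and 51, and neither passed the test (edgeR adjusted p = 0.148 and 0.262). Summed, they ran from 0 to 69.8 CPM (read pairs per 1000000 loop read pairs of the library, by library size alone) in bulk and from 93.1 to 262 in double positive libraries. Of all genes tested 20% were higher and 40.9% lower in double positive cells. Of 14 endoderm genes tested, 8 were higher and 2 lower in double positive cells, of 5 mesoderm genes 0 and 3, and of 3 pluripotency genes 2 and 1. Of 9 neural genes 0 were higher and 8 lower. Summed over the 10 neural genes with an anchor, promoter read pairs ran from 631 to 1530 CPM in bulk and from 509 to 589 in double positive libraries. Over the 15 endoderm genes they ran from 598 to 906 and from 4019 to 5263, and over the 9 mesoderm genes from 291 to 536 and from 840 to 1097. Double positive read pairs were 0 for 1 of the 10 neural genes and 2 of the 15 endoderm genes, Hnf4a among them. They were also 0 for 6 of the 9 mesoderm genes and 3 of the 6 pluripotency genes. The mesoderm sum in double positive libraries thus rests on few genes. A tested gene with 0 double positive read pairs could only be called lower. The neural genes moved in the direction of Nr2f1, Nr2f2, Zic1 and Zic4 described next, and their part in these results was not tested.

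The sequences below belong to the anchors on which the results turn. The first 3 are promoters whose TSS lies in an anchor used by both groups, shown as RefSeq gives them for GRCm38.p6, 5′ to 3′ on the gene's strand, with 250 bases before the start site and 50 after. They were searched on both strands for direct repeats of the half-site AGGTCA, with the variant GGGTCA, the variant AGTTCA and the variant GGTTCA allowed in either place, and with 1, 2 or 5 bases between them (DR1, DR2, DR5) and for CAGCAGG, letters seen at sites bound by ZIC proteins. Capitals mark a match.
Nr2f1 promoter (chr13:78198824-78199123, minus strand): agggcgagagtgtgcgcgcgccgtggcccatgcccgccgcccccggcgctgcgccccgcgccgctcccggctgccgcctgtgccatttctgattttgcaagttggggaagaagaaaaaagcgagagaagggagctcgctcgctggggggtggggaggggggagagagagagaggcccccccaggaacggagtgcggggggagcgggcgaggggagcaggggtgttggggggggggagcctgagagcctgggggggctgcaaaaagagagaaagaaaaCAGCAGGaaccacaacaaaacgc
Nr2f6 promoter (chr8:71381903-71382202, minus strand): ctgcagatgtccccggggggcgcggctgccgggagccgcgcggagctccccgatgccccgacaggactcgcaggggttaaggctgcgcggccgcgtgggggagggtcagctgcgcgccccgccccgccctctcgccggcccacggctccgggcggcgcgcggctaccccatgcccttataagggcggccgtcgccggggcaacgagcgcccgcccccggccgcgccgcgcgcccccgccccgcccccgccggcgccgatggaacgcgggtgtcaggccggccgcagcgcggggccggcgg
Zic1 promoter (chr9:91365719-91366018, minus strand): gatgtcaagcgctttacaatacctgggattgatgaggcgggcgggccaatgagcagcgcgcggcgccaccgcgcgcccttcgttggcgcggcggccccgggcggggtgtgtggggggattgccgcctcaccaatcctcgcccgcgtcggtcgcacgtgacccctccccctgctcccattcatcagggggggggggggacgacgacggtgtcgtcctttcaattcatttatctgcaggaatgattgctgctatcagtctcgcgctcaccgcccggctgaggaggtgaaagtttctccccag
Each of the 3 matched the mm9 genome at 1 place. Of the 7 RefSeq promoters of these genes, 2 of them of Nr2f1, the one printed for Nr2f1 held the single match to CAGCAGG, which 10.5% of 32851 promoters of this length hold. No direct repeat was found in these windows, against 0.222% of promoters with a DR1, 0.268% with a DR2 and 0.0974% with a DR5. Zic2 had no entry.

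The same letters were searched in 33 mm9 anchors: all those in the TSS windows, the partners in each gene's 3 strongest loops, and the partners in loops with at least 8 bulk or 4 double positive read pairs. A DR5, the spacing bound by retinoic acid receptors at many RA-responsive genes, was found in 4 of them, all partner anchors and none a promoter window of these genes. Among all anchors 1.28% held one. Of these sites 3 are printed, and the only DR1, each with 15 bases on either side, on the strand that reads the repeat forward, with the repeat in capitals.
Nr2f1 partner 1.05 Mb upstream (chr13:79391774-79391820, minus strand): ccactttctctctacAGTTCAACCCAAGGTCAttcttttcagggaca
Nr2f1 partner beside it (chr13:79394553-79394599, plus strand): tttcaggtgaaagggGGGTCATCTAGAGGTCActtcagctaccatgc
Zic2 and Zic5 partner at Tm9sf2 (chr14:122504384-122504430, plus strand): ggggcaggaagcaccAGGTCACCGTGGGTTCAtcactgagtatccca
Zic4 window anchor (chr9:91265486-91265528, minus strand): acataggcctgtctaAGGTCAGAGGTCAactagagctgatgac
Among anchors within 10% of the same width, 1.30%, 2.29% and 2.29% held a DR5 in the order printed, and 2.21% a DR1. CAGCAGG was found in 21 of the 33 anchors and in 48.3% of all anchors; among anchors of like width the share was 38.2% to 83.0% (mean 57.9% over the 33).

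Nr2f1 was the most contacted member in bulk. The gene (chr13:78328234-78339018 in mm9, minus strand) has 2 anchors at its TSSs (chr13:78333338-78336200 and chr13:78337804-78343969), each used by both groups. Bulk libraries held from 6 to 86 read pairs there (median 26.5, sum 360), more than 99.0% of genes, and the 5 double positive libraries held 3, 3, 1, 0 and 8 (sum 15). On the normalized scale all 5 double positive libraries, at 0 to 31.3 CPM, lay below all 12 bulk libraries, at 125 to 452. Nr2f1 was lower by a log2 fold change of -4.31 ± 0.37 (SE; edgeR adjusted p = 3.21e-12), which is -3.87 relative to the median gene. By library size alone it was -2.51, or -3.89 relative to that scaling's median. Among all genes tested 40.9% were lower and 20% higher, 60.8% in all, and without overlap of the groups 12.6% were lower and 6.66% higher. The double positive library with 0 read pairs is the smallest, and 0 there allows up to 3 read pairs. That is 59.4 CPM by library size, a scale on which the lowest bulk library held 92.0.

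**Figure D1:**
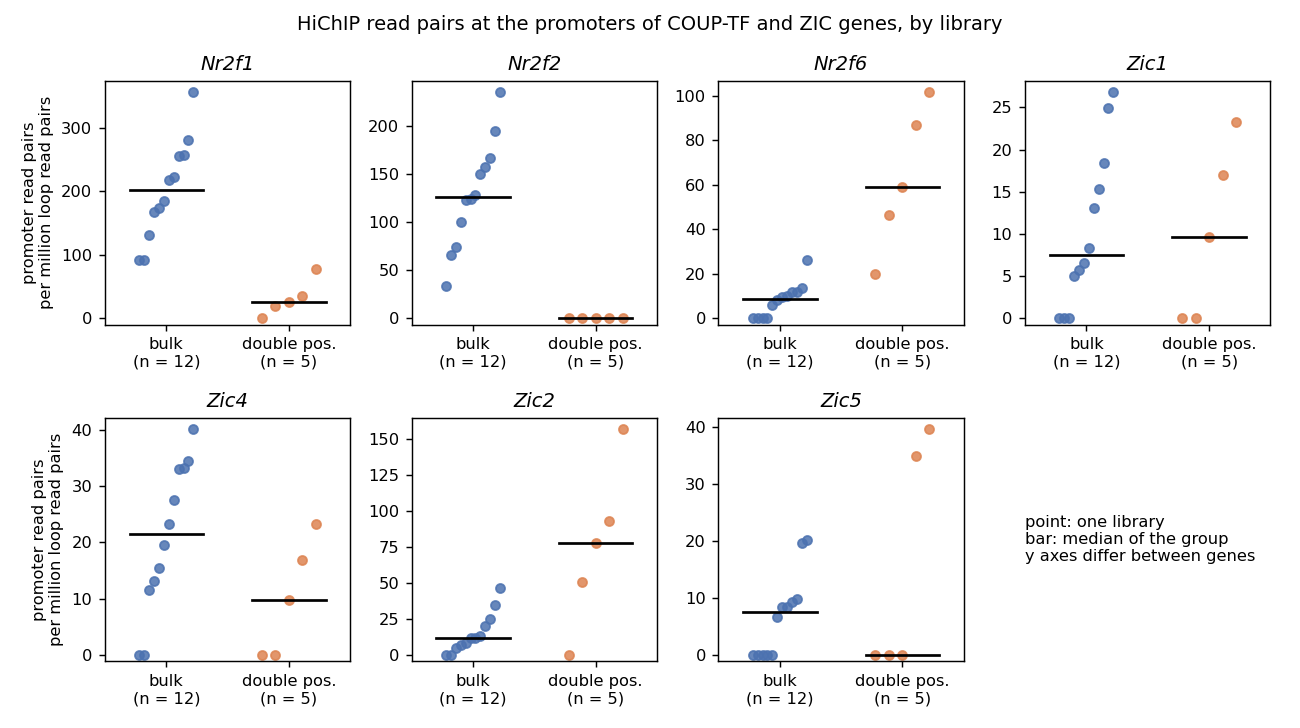
Read pairs in loops of each promoter in CPM of the library's loop read pairs (y axes differ); each point is 1 library and the bar is the median. All double positive libraries lie below all bulk libraries for Nr2f1 (at most 77.3 against at least 92.0) and at 0 for Nr2f2, while the highest Nr2f6 and Zic2 values are double positive; this scale is library size alone, which lifts double positive values of the median gene.

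Most Nr2f1 contacts reached far upstream. In bulk, 261 of 338 read pairs that left the window (77.2%, 95% exact binomial interval 72.4 to 81.6) had the partner upstream, with 51 read pairs 250 to 500 kb away, 35 at 500 to 750 kb, 50 at 750 to 1000 kb and 65 in the next 250 kb. Partners at a promoter were few: 4 of 338 read pairs (1.18%, interval 0.323 to 3.0), against 26.7% over all loops with a promoter anchor in bulk. Here and below, the share over all promoter loops also counts loops between anchors of one gene's window. The shares of single genes leave these out (22 bulk read pairs for Nr2f1), so the measures are not quite alike. Loops over 100 kb held 280 of 360 bulk read pairs (77.8%, interval 73.1 to 82.0), against 54.1% over all promoter loops, and 5 of 15 double positive ones (33.3%, interval 11.8 to 61.6). Only 10 of the 122 bulk partner anchors, with 87 of the 338 read pairs, were in the double positive set. On anchors used by both groups the pooled difference in this share was -20.8 points, against -44.4 over all anchors. No member had a read pair in every library, so the planned comparison of this share between libraries could not be made. Over the libraries with a read pair the share was 77.1% ± 11.4 (SD, n = 12) in bulk and 42.7% ± 41.7 (SD, n = 4) in double positive cells, a difference that did not pass the exact permutation test after adjustment over 5 genes (two-sided p = 0.0154, adjusted p = 0.0769). For all promoter loops the same share was 54.3% ± 1.02 (SD, n = 12) and 45.2% ± 0.315 (SD, n = 5; exact permutation p = 0.000162, the smallest that 6188 splits give).

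The single strongest distant partner of Nr2f1 lies 1050342 bp upstream, the anchor chr13:79389888-79392568 that holds the first DR5 printed above. It is intergenic, and Nr2f1 itself is the nearest protein-coding gene. The 12 bulk libraries held 3, 7, 0, 1, 2, 1, 2, 0, 1, 1, 2 and 1 read pairs (sum 21) and the double positive libraries 0. It was seen in 10 of the 12 bulk libraries. Of 52773 loops of like span (within 10%), 2 had as many bulk read pairs, this one included, and the loop took 21.0% of the 100 bulk read pairs of that anchor. It was called lower in double positive cells (adjusted p = 1.83e-07, edgeR on 5369 loops, of which 22.4% were lower and 38.1% higher, 60.5% in all). No double positive loop used the anchor at all, so the call could take no other direction and no fold is given. The neighbouring anchor chr13:79393280-79398139, with the second DR5, is used by both groups and had 11 read pairs to the Nr2f1 anchors in 7 bulk libraries and 0 in double positive ones, where it had 3 to other anchors. It was named for its repeat, after its values were seen. A further 5 intergenic anchors, 379521, 670733, 827826, 935758 and 1144560 bp upstream, had 10, 8, 17, 10 and 10 bulk read pairs to either Nr2f1 anchor, each in 4 to 7 libraries. In double positive libraries the one 670733 bp away had 1 and the other 4 had 0. No double positive loop used the anchors 379521 and 827826 bp away, so 0 was the only value open there. The anchors 935758 and 1144560 bp away were used by both groups.

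Near the gene, the loop between the Nr2f1 window anchors (6117 bp) had 22 read pairs in bulk and 2, 1, 0, 0 and 4 in double positive libraries. It was lower by -1.90 ± 0.60 (SE; edgeR adjusted p = 0.00339), and the difference was 0.28 by library size alone. Another loop, 8432 bp to an intron of the neighbouring transcript A830082K12Rik, had 17 and 2 read pairs, too few to be tested. Of the 7 Nr2f1 loops seen in double positive cells 6 were also seen in bulk, which had 152.

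Nr2f2 (chr7:77496832-77511621, minus strand) had no read pair in double positive libraries. Its bulk libraries held from 5 to 47 read pairs (median 14, sum 225), more than 96.7% of genes, and every double positive library held 0. Of its 2 window anchors, chr7:77503210-77509643 covers an internal TSS and holds 207 read pairs, and chr7:77513380-77516793 lies 1759 bp from the outer TSS and holds 24. Neither was in the double positive set. Nor were any of the 182 anchors within 1 Mb, against 9 of 162 around Nr2f1 and 6.98% of all anchors, and the nearest double positive anchor was 2173992 bp from a TSS. The files do not show whether such anchors were absent from the peaks or had no read pair, so no fold is given. The call was lower (edgeR adjusted p = 1.32e-11), the only direction open to a gene that passed the minimum on bulk read pairs alone. Of the genes tested 20.2% had 0 double positive read pairs.

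Nr2f2 contacts fell into a strong short loop and a wide upstream field. The short loop, 10864 bp long, joined the internal TSS to the anchor chr7:77494011-77497114 at the 3′ end of the gene. The bulk libraries held 2, 11, 6, 3, 3, 5, 2, 5, 2, 0, 2 and 3 read pairs in it (sum 44), so 11 of 12 saw it. Of 18646 loops of like span, 15 had as many. It was called lower (edgeR adjusted p = 3.78e-12), again the only direction open, since neither anchor was in the double positive set. Upstream partners took 139 of 219 read pairs (63.5%, interval 56.7 to 69.9) and promoter partners 11 of 219 (5.02%, interval 2.53 to 8.81), and 62.7% of 225 read pairs (interval 56.0 to 69.0) spanned over 100 kb, against 54.1% over all promoter loops. The next strongest loop, 1022013 bp upstream to an intergenic anchor, had 7 bulk read pairs in 5 libraries, as many as 30 of 53348 loops of like span.

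**Figure D2:**
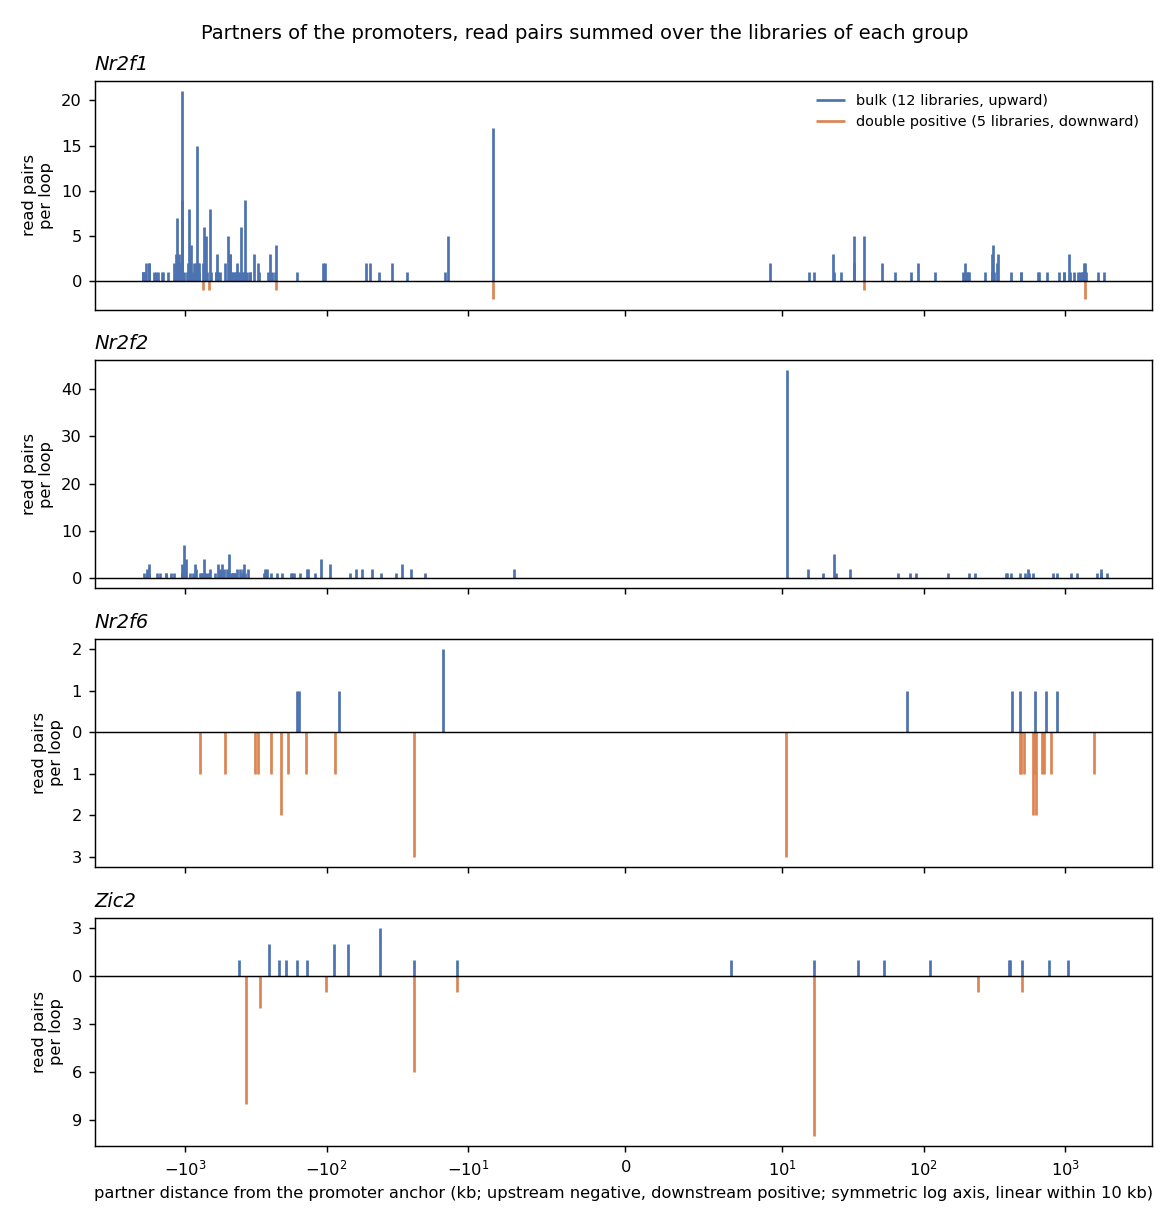
Read pairs of each loop (y axis, bulk upward, double positive downward, summed over 12 and 5 libraries) against the distance of its partner from the promoter anchor in kb (symmetric log axis, upstream negative). The Nr2f1 field over 250 kb upstream with its loop of 21 read pairs and the Nr2f2 loop of 44 stand in bulk, while the 3 highest bars of Zic2 (10, 8 and 6) are double positive.

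Nr2f6 (chr8:73898026-73905859, minus strand) differed from both in direction. Bulk libraries held from 0 to 2 read pairs (median 1.0, sum 11), and the 5 double positive libraries held 12, 4, 3, 1 and 9 (sum 29). Normalized, the double positive libraries ran from 7.51 to 42.1 CPM and 1 of them lay above every bulk library, at 0 to 36.8. It was higher by a log2 fold change of 1.30 ± 0.57 (SE; edgeR adjusted p = 0.0458), which is 1.74 relative to the median gene. The call did not hold without double positive library 1 (adjusted p = 0.171), 3 (0.0537) or 5 (0.113), on anchors used by both groups (0.114) or without parts of chromosomes 1, 2 and 11 (0.0656), and the fold change stayed above 0 in these. Its promoter anchor, chr8:73904507-73907586, holds all 29 double positive read pairs. The partners were almost all promoters, in 27 of 29 double positive read pairs (93.1%, interval 77.2 to 99.2) and 8 of 11 bulk ones (72.7%, interval 39.0 to 94.0). Over all promoter loops 69.8% of double positive read pairs had a promoter at both anchors. The strongest partners were Ocel1 and Use1 (10693 bp; 3 double positive read pairs) and Ankle1 (24089 bp; 3), each with 0 in bulk. The 2 Mb around Nr2f6 was rich in double positive contacts, with 67 of its 205 anchors in that set and 3443 double positive read pairs.

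Zic1 (chr9:91252896-91260648, minus strand) and Zic4 (chr9:91257251-91284186, plus strand) share 3 anchors, so their values are not independent. Zic1 bulk libraries held from 0 to 6 read pairs (median 1.0, sum 19) and Zic4 from 0 to 8 (median 2.5, sum 38). Both had 2, 2, 0, 0 and 1 in the double positive libraries, and these are the same 5 read pairs of a single loop. It spans 16100 bp from chr9:91258744-91261695, at the Zic1 promoter, to chr9:91275148-91277491, at an internal TSS of Zic4, and was seen in 3 double positive libraries and in 0 of 12 bulk libraries although both anchors are used by both groups. Zic4 was lower by -2.55 ± 0.61 (SE; edgeR adjusted p = 0.000457; -2.12 relative to the median gene). By library size alone it was -0.87 and did not pass (edgeR adjusted p = 0.238). Of the 7 Zic4 window anchors 2 were in the double positive set, and of the 3 Zic1 ones 1. Read pairs at the others could only be bulk. On anchors used by both groups neither gene gave a value. Zic1 was lower by -1.60 ± 0.69 (SE; edgeR adjusted p = 0.0434; -1.17 relative to the median gene). This call was lost with DESeq2 (adjusted p = 0.0857), with a 2.5 kb window (0.0798) and without double positive library 1, 3, 4 or 5 (0.0513 to 0.0857), and the direction turned by library size alone (0.06). In bulk the most frequent loop was a 5435 bp loop inside the Zic4 window (5 read pairs), followed by a 10453 bp loop shared by both genes and an 8599 bp loop inside the Zic4 window (2 each). Of the bulk read pairs leaving the Zic1 window 4 of 18 met another promoter (22.2%, interval 6.41 to 47.6). For the Zic4 window it was 1 of 25 (4.0%, interval 0.101 to 20.4). All Zic1 anchors lie in the Zic4 window, so a contact between the promoters of both genes can count for Zic1 but not for Zic4. The Zic4 share leaves out 13 bulk read pairs within its window, so it cannot be compared with that of Zic1. Over all promoter loops in bulk the share was 26.7%, which the Zic1 interval includes.

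Zic2 (chr14:122874604-122879074, plus strand) did not follow Nr2f1 and Nr2f2. Bulk libraries held from 0 to 6 read pairs (median 1.0, sum 26) and the double positive libraries 6, 8, 8, 0 and 8 (sum 30), in the same anchor chr14:122872236-122879486. The groups overlapped, and the fold change of 0.34 ± 0.54 (SE) did not pass (edgeR adjusted p = 0.603). It passed by library size alone (2.16, adjusted p = 0.000275) and on anchors used by both groups (1.60, adjusted p = 0.0449), and its sign turned with a 10 kb window (-0.17) and with spans of at least 20 kb (-0.13).

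The loops of Zic2 led to different kinds of partner in the libraries of both groups, a description with no test. In double positive cells 28 of 30 read pairs (93.3%, interval 77.9 to 99.2) met a promoter anchor, against 4 of 26 in bulk (15.4%, interval 4.36 to 34.9). Over all promoter loops these shares were 69.8% and 26.7%, and the sets of anchors differ in the same direction. Double positive libraries held 1, 2, 3, 0 and 4 read pairs in a 16740 bp loop to Gm10837 (1 in bulk). They held 1, 2, 3, 0 and 2 in a 370342 bp loop to the Tm9sf2 promoter (chr14:122503253-122507785, the DR5 anchor; 0 in bulk) and 3, 0, 1, 0 and 2 in a 23990 bp loop to Gm5089 (1 in bulk). The Tm9sf2 contact was seen in 4 of 5 double positive libraries and no bulk library, although that anchor had 85 bulk read pairs to other places, and 95 of 61947 loops of like span had as many double positive read pairs. These loops were too weak to be tested across all loops.

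Zic5 (chr14:122856017-122864899, minus strand), in the anchor chr14:122862288-122865454 next to Zic2, had 13 read pairs in bulk (0 to 3 per library, median 1.0) and 0, 3, 0, 2 and 0 in double positive libraries. Its 18 read pairs were below the minimum of 20, and 6 of the 7 genes were tested. With no minimum the fold change was -0.98 (edgeR adjusted p = 0.257). It reached the same partners as Zic2: Tm9sf2 (358352 bp; 0 read pairs in bulk, 2 in double positive cells) and Gm5089 (12000 bp; 3 and 1). A loop of 11990 bp between Zic2 and Zic5 had 1 read pair in each group.

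**Figure D3:**
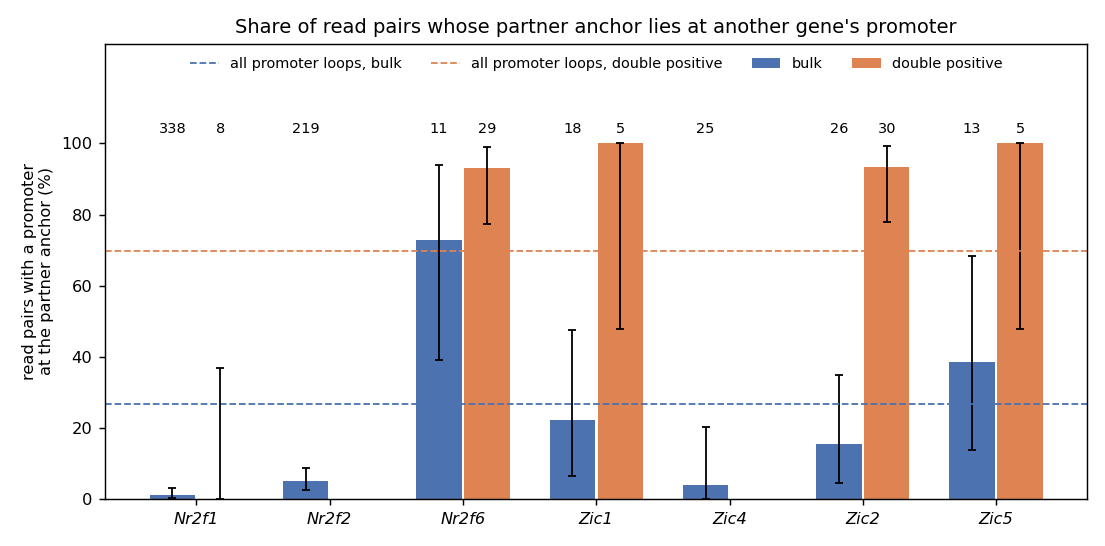
Share of the read pairs leaving each promoter window whose partner anchor lies within 5 kb of another gene's TSS, with 95% exact binomial intervals for counting error; numbers above give the read pairs, groups under 5 read pairs are not drawn, and dashed lines are all promoter loops (26.7% bulk, 69.8% double positive). Nr2f1 and Nr2f2 bulk bars (1.18% and 5.02%) lie far below the bulk line, while Nr2f6 and Zic2 in double positive cells (93.1% and 93.3%) lie above theirs. The dashed lines also count loops between anchors of one gene's window, which the bars leave out. For Zic4 the bar thus leaves out contacts with Zic1 anchors, all of which lie in its window.

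Ratios between members within a library use no scaling factor, but at low counts they depend on depth through the amount added to each count. Of 6 ratios of read pairs (0.5 added to each; two-sided exact permutation tests over 6188 splits, adjusted over the 6), the log2 ratio of Nr2f6 to Nr2f1 differed, from -4.35 ± 1.39 (SD, n = 12) in bulk to 1.03 ± 0.74 (SD, n = 5; adjusted p = 0.000485), with all 5 double positive libraries above all bulk ones. Both ratios that hold Nr2f2 also passed (Nr2f6 to Nr2f2, difference 6.96, adjusted p = 0.000485 in an exact permutation test; Nr2f1 to Nr2f2, 1.58, adjusted p = 0.0126), with Nr2f2 at 0 in the double positive libraries, so that their size there rests on the 0.5 added. The last did not pass without double positive library 5 (1.12, adjusted p = 0.0538 in an exact permutation test). Nr2f6 held 0 to 2 read pairs per bulk library, so the size of its ratios in bulk also rests on the amount added. The difference in the Nr2f6 to Nr2f1 ratio was 5.38 with 0.5 added and 4.65 with 1. The other 3 did not pass: Zic1 to Zic4 (difference 0.80, adjusted p = 0.0526 in an exact permutation test), Zic1 to Zic2 (-1.64, 0.0526) and Zic2 to Zic5 (1.49, 0.168). Zic1 and Zic4 hold the same double positive read pairs, so their log2 ratio is 0 in each of those libraries by the overlap of their windows. The comparison of these 2 genes therefore shows only where the bulk ratios lie.

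**Figure D4:**
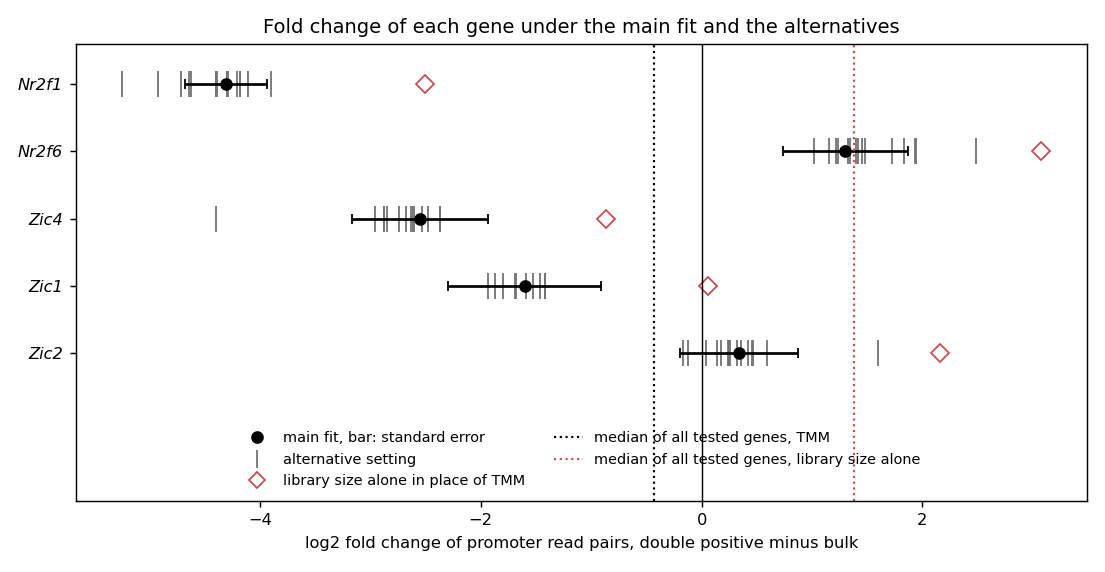
Log2 fold change (x axis, double positive minus bulk) of the 5 genes with a fold: black points with standard errors are the main values, grey ticks the alternative settings, red diamonds library size alone, and dotted lines the median of all genes under both scalings (-0.43 and 1.38). Nr2f1 lies left of 0 in every setting drawn and Nr2f6 right of it, while Zic1 and Zic2 have values on both sides.

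Genes related to these factors were lower in double positive cells for the most part. Of 14 relatives and partners tested, 1 was higher and 11 lower (20% and 40.9% of all genes), with a median log2 fold change of -3.29 against -0.43 over all genes. Of the 17 with an anchor 8 had 0 double positive read pairs, Rxrg and Bcl11a among them. Those of the 8 that were tested passed the minimum on bulk read pairs alone and could only be called lower. Their folds enter the median, which therefore gives no size of change. Summed by library size over the list, which the most contacted genes weigh most, the read pairs ran the other way, from 701 to 1228 CPM in bulk and from 2277 to 2540 in double positive libraries. Among the lower ones with the smallest p were Rxrg, a retinoid X receptor (145 read pairs in bulk, 0 in double positive cells), and Bcl11a, a zinc finger partner of COUP-TFs (147 and 0). The higher one was Rxrb, another retinoid X receptor (1.58, edgeR adjusted p = 1.60e-08; 242 and 646 read pairs). Of 20 regional patterning genes of the neural plate tested, 1 was higher and 12 lower (median -1.62), and the sums by library size, which overlapped, ran from 454 to 819 CPM in bulk and from 724 to 1012 in double positive libraries. Among them were the homeobox genes Irx3 (77 and 1 read pairs), En1 (67 and 3) and Dbx1 (43 and 0), and Msx2, a BMP-responsive homeobox gene, was higher (1.25, edgeR adjusted p = 0.0291). Of the 28 patterning genes with an anchor 10 had 0 double positive read pairs, Dbx1 among them, and the same limit holds for their calls and the median.

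The genes on other chromosomes whose normalized counts were most like a member's over the 17 libraries were, for Nr2f1, Hoxb5 (Pearson r = 0.969 on log2(CPM + 1)) and Slc22a15 (0.964), for Nr2f2 Odz3 (0.992) and Nampt (0.991), and for Zic4 Apba1 (0.884) and Slit2 (0.881). For Nr2f6 they were Polr3gl and Ankrd34a (both 0.829), for Zic1 Cab39l and Setdb2 (both 0.849) and for Zic2 Rasgef1c (0.849) and Gfm2 (0.804). Genes with equal values are neighbours on the same anchors. All points share the libraries and the 2 groups, and within the 12 bulk libraries alone the correlation of Nr2f1 with Hoxb5 was 0.499, that with Slc22a15 0.136, and that of Nr2f2 with Odz3 0.719.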

How the data were processed

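H3K27ac HiChIP was analysed in 12 bulk and 5 double positive libraries at RA-day 4. The authors digested chromatin with MboI, mapped reads to mm9 with HiC-Pro and called peaks and loops with hichipper. The deposited values are counts of read pairs per anchor pair, not normalized, and pairs with none are not listed. The peaks behind each anchor set are not given in the sources used here.

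Overlapping anchors were joined, and read pairs were summed per loop and per protein-coding gene (anchors within 5 kb of a TSS, GENCODE annotation of mm9), which dropped 700 read pairs within one joined anchor. Genes and loops with at least 20 read pairs that were seen in 5 or more libraries went into the quasi-likelihood test of edgeR 4.0.16 under R 4.3.3 (TMM, Benjamini-Hochberg, adjusted p under 0.05). The fits were also run on simulated counts in which few genes or loops changed. Here 60.8% of genes were called, so the simulation does not show how the fit behaves on these data. CPM in the text is by library size or, where called normalized, after TMM. Ratios and shares used exact permutation tests in Python (scipy 1.17.1). The members, the relatives, patterning and marker lists and the tests were chosen with earlier results of these data known. Named were the 7 members, for each its 3 loops with the most read pairs and any loop passing the test, at most 3 genes per list and direction by smallest p, and the 2 most alike genes per member. One gene and one site that these rules name are not reported here. Promoters came from RefSeq (GRCm38.p6) and matched 6 of 7 symbols. Alternatives were DESeq2 1.42.0, library size, minimums of 50, 10 or none, other windows and spans, anchors used by both groups, parts of chromosomes 1 (from 130 Mb), 2 (from 150 Mb) and 11 (first 200 kb) removed, bulk libraries with at least 500 loops of 5 or more reads, the replicate block and each double positive library left out.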

Additional observations from a re-analysis of the deposited data

How the results depend on the processing

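Nr2f1 stayed called lower in all 17 alternatives and Nr2f2 in the 15 that gave a value (without 1 double positive library, -4.92 to -4.11 for Nr2f1). The loops of Nr2f1 (1050342 bp) and Nr2f2 (10864 bp) stayed called lower wherever they could be fitted. Both loops, like the gene Nr2f2, passed the minimum on bulk read pairs alone, with 0 in double positive libraries. Their calls could take no other direction, so staying called adds no support. Genes and loops under a setting's minimum gave no value there. Where a call changed, the cause was not tested.

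By library size alone Zic1 turned to 0.060 and the 6117 bp Nr2f1 loop to 0.28, Zic4 was -0.87 without a call and Zic2 2.16 with one. On anchors used by both groups Nr2f6 was 1.23 (not called), Zic2 1.60 (called), the ratio of Zic2 to Zic5 2.23 and of Zic1 to Zic2 -1.55, both passing. This setting removes by construction genes without double positive read pairs, so Nr2f2 and its ratios gave no value there, nor did Zic1 to Zic4, which then hold the same read pairs. The genes Zic1 and Zic4 gave no fold change under it either. Zic1 was -1.69 with DESeq2 and -1.47 with a 2.5 kb window, both not called. Zic2 was -0.17 with a 10 kb window and -0.13 with spans of at least 20 kb. Nr2f6 was 1.22 without parts of chromosomes 1, 2 and 11. With a minimum of 10 read pairs the 6117 bp loop was -1.29 (not called). With 1 added in place of 0.5, the ratio Zic1 to Zic2 (-1.39) passed. So did Zic1 to Zic4 (0.65), whose double positive values are fixed at a log2 ratio of 0 by the shared loop.

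With 1 double positive library left out in turn, Nr2f6 ranged from 1.02 to 1.48, Zic1 from -1.93 to -1.42, the ratio of Nr2f1 to Nr2f2 from 1.12 to 2.14 (not passing without library 5), of Zic2 to Zic5 from 1.01 to 2.61 and of Zic1 to Zic2 from -2.12 to -1.10. Loops called higher ranged from 1206 to 1571.

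Libraries with the same number did not deviate together (correlations from -0.01 to 0.0049), so they share only a number. With the replicate number as a block over libraries 1 to 5, Nr2f6 was 1.73 (adjusted p = 0.0578, not called). The ratios of Nr2f1 to Nr2f2 (1.28), Nr2f6 to Nr2f1 (6.37) and Nr2f6 to Nr2f2 (7.66) did not pass, since 5 pairs cannot give a two-sided p under 0.0625. Genes called lower numbered 3475 with the block and 3679 without it on the same libraries, against 5604, and loops called 827 and 429 with it, 1142 and 486 without it (higher and lower), against 2044 and 1203.

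Genes called lower numbered 3311 by library size (7976 higher, against 2737), 3356 with a minimum of 50, 9596 with none, 1071 on anchors used by both groups and 2603 with bulk libraries 2, 3 and 4 alone. Loops called numbered 4129 higher and 740 lower by library size, 334 and 197 with a minimum of 50, 6515 and 4725 with a minimum of 10, and 552 lower on anchors used by both groups. Most loops of Nr2f6 and the ZIC genes held 1 to 3 read pairs, too few to be tested.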
